A study of Mus musculus with 20 samples.

Results

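The neutrophil granule genes described here are 7 mouse genes, S100a8, S100a9, Ngp, Camp, Ltf, Lcn2 and BC100530, of the 45700 genes in the deposited expression table. They were taken from the table by gene symbol, and they had been picked with their values in these samples already known and with no stated cut-off. Every difference between genotypes given for them is therefore a description of these brains and supports nothing by itself. All 7 averaged 0.1 FPKM or more and so entered the fits, which covered 22469 genes, and 3 of the 7 averaged 1 FPKM or more. FPKM, the number of fragments scaled to transcript length and to library size, is a level per length, so that levels of different genes can be set side by side.

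The study sequenced brain RNA of the Taiwanese mouse model of spinal muscular atrophy (SMA), a motor neuron disease caused by low levels of the SMN protein. SMA mice lacked murine Smn (Smn-/-; SMN2tg/0) and carried the human SMN2 transgene on 1 allele. Controls were phenotypically normal littermates with 1 functional Smn allele (Smn-/+; SMN2tg/0), so the transgene was shared by both genotypes, all on a congenic FVB background. Brains were taken at the early-symptomatic stage, postnatal day 5 (2 libraries per genotype and fraction), and at the late-symptomatic stage, day 7 (3 per genotype and fraction). Total cytoplasmic RNA and RNA of the polysomal fractions of a sucrose gradient were sequenced separately. The brain label was borne out by Stmn2, a neuronal gene, at a mean of 1176 FPKM, while Tubb3, another neuronal gene, was listed at 0 in both early-symptomatic control polysomal libraries.

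Neutrophils are the white blood cells that arrive first at sites of infection or injury, and they carry ready-made antimicrobial proteins in granules that are filled while the cell matures in the bone marrow. S100a8 and S100a9 encode the subunits of calprotectin, a metal-binding protein that fills the neutrophil cytosol and is an alarm signal once released. Ngp (neutrophilic granule protein), Camp (the cathelicidin precursor), Ltf (the iron-binding lactoferrin) and Lcn2 (the siderophore-binding lipocalin 2) belong to the secondary granules, and BC100530 is a gene of the stefin A family of cysteine protease inhibitors. Lcn2 is also made by reactive astrocytes. One replicate stood apart: the day 7 SMA libraries numbered 1 held far more of most members than any other library, in both fractions, and the day 7 differences between genotypes are given for each member with and without them. In whole tissue, fewer cells of a type and less RNA per cell cannot be told apart.

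The members lie on 4 chromosomes. S100a8 (ENSMUSG00000056054.9, GRCm38 chr3:90668977-90670035, + strand) and S100a9 (ENSMUSG00000056071.10, chr3:90692631-90695721, − strand) are neighbours. Camp (ENSMUSG00000038357.10, chr9:109847378-109849617, − strand), Ngp (ENSMUSG00000032484.8, chr9:110419746-110423012, + strand) and Ltf (ENSMUSG00000032496.5, chr9:111019270-111042767, + strand) lie on the same chromosome, Lcn2 (ENSMUSG00000026822.12) at chr2:32384632-32388252 on the − strand, and BC100530 (ENSMUSG00000071561.2) at chr16:36359381-36387406 on the − strand. All 7 are annotated as protein coding. The coordinates are those of the table, and the BC100530 interval also takes in the antisense gene Gm15845, whose mean was 0.0085 FPKM.

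BC100530 belongs to a family of similar genes, and the coding sequences show how far reads could have been shared. The stretches below are aligned to bases 10 to 69 of the BC100530 coding sequence (GRCm38 Gencode M21 transcripts, 5′ to 3′). Capitals mark bases that differ from BC100530.
BC100530: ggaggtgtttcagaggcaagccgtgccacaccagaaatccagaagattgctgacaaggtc
BC117090: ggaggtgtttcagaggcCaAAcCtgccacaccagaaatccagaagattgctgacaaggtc
Stfa1: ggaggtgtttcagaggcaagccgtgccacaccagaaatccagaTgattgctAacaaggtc
Stfa2: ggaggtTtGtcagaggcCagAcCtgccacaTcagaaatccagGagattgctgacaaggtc
Stfa2l1: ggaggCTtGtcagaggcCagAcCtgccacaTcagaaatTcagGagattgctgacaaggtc
Stfa3: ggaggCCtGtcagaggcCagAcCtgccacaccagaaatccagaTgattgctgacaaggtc
Gm5483: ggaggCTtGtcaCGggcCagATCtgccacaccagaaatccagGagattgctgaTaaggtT
Over the whole coding sequence, with gaps counted as differences, BC117090 was 95.2% identical to BC100530, Gm5483 80.4%, Stfa3 79.3%, Stfa2 75.1%, Stfa2l1 74.8% and Stfa1 74.2%. Of the 520 different stretches of 100 bases, the read length, in the BC100530 transcript, 40 (7.69%) were found unchanged in a paralog, and these lay in BC117090 and Stfa1. Stfa1 was listed at 0 in every library and BC117090 at a mean of 0.022 FPKM. None was shared with Stfa2, Stfa3, Stfa2l1 or Gm5483, but reads with mismatches could still have been placed on a paralog, so BC100530 values are uncertain to that extent.

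Promoter sequences (RefSeq, GRCm38.p6) were matched for 6 of the 7 members. The letters TTGCNNAA, a core of the sites of C/EBP factors, which direct granule gene expression in maturing granulocytes, were searched on both strands of the 250 bases before each start. They occurred in 4 of the 6, against 9.56% of 32851 promoters. Starts are those of RefSeq, and some lie inside the interval the table gives for the gene. The windows are shown 5′ to 3′ on the gene's strand, with the match in capitals (for the second Ngp window and for Ltf the match is on the other strand, so the capitals are its reverse complement), at chr3:90695934-90695971 for S100a9, chr9:110419654-110419693 and chr9:110419781-110419807 for Ngp, chr9:111019201-111019240 for Ltf and chr2:32387932-32387971 for Lcn2.
S100a9: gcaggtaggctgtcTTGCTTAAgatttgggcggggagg
Ngp, first: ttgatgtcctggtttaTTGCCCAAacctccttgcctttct
Ngp, second: atgtcaccggcagttcTTGGGCAAggc
Ltf: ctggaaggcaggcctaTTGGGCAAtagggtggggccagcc
Lcn2: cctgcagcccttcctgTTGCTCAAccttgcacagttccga
The S100a8 and Camp windows held no match to these letters. A match is a run of letters, and binding was not measured.

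S100a8 and S100a9 were the most abundant members, with means of 4.79 and 4.15 FPKM over the 20 libraries. BC100530 followed at 1.53, and Ltf (0.244), Ngp (0.174), Lcn2 (0.170) and Camp (0.142) were the weakest. S100a8 and S100a9 together made up 64.3 to 86.5% (median 79.5%) of the summed FPKM of the members in a library. Since the table gives no read counts, the worth of 1 fragment was estimated from the lowest steps among genes of like length with 1 annotated transcript. By that estimate S100a8 rested on about 4 to 315 fragments per library and S100a9 on about 9 to 274. Camp rested on about 1 to 13, so that a single fragment more or less is visible in its values. No such estimate was made for the other members. Ngp and Lcn2 had means near that of Camp and were each listed at 0 in 1 library, so their values may also rest on few fragments.

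At day 5, S100a8 was higher in SMA than in control brains in both fractions. In total RNA it stood at 0.93 and 0.94 FPKM in the controls and at 3.28 and 3.71 in the SMA brains. In polysomal RNA it stood at 1.88 and 1.29 in the controls and at 3.31 and 4.16 in the SMA brains. The genotypes did not overlap in either fraction. On the log2(FPKM + 0.1) scale the difference was 1.79 (SE 0.18) in total and 1.20 (SE 0.27) in polysomal RNA, or ratios of mean FPKM of 3.74 and 2.36.

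At day 7 S100a8 spread much more among SMA brains. In total RNA the controls stood at 1.72, 1.41 and 0.53 FPKM and the SMA brains at 21.83, 2.09 and 6.16. In polysomal RNA the controls stood at 1.30, 2.56 and 1.62 and the SMA brains at 28.34, 3.35 and 5.39. SMA replicate 1 was the highest in both fractions, while the lowest SMA library was still above the highest control. The log2 difference was 2.48 (SE 0.96) in total RNA and 2.13 (SE 0.86) in polysomal RNA. Without SMA replicate 1 it was 1.62 and 1.23, and the ratio of mean FPKM went from 8.22 to 3.38 in total and from 6.77 to 2.39 in polysomal RNA.

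S100a9, the partner subunit, had much the same profile. In total RNA at day 5 it stood at 1.02 and 0.93 FPKM in the controls and at 1.54 and 2.99 in the SMA brains. In polysomal RNA at day 5 it stood at 1.43 and 1.73 in the controls and at 2.19 and 4.84 in the SMA brains. The second SMA replicate was the higher one in both fractions, and the genotypes did not overlap. At day 7 the controls stood at 1.86, 1.99 and 1.08 in total RNA, against 17.97, 2.86 and 4.17 in the SMA brains. In polysomal RNA at day 7 the controls stood at 1.34, 2.11 and 1.85 and the SMA brains at 21.91, 3.75 and 5.36. SMA replicate 1 was again highest and no SMA library reached down to the controls. The log2 differences were 1.07 (SE 0.41) and 1.01 (SE 0.48) at day 5 in total and polysomal RNA, and 1.85 (SE 0.75) and 2.07 (SE 0.71) at day 7. Without SMA replicate 1 the day 7 values were 1.07 and 1.32. The FPKM ratio of S100a8 to S100a9 ranged from 0.491 to 2.13 across libraries, with a median of 0.988.

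BC100530, the stefin A gene, was also higher in SMA brains, from a lower level. In total RNA it stood at 0.13 and 0.39 FPKM in the day 5 controls and at 1.07 and 0.85 in the SMA brains. In polysomal RNA at day 5 it stood at 0.43 and 0.37 in the controls and at 0.83 and 1.51 in the SMA brains. At day 7 the controls were at 0.58, 0 and 0.36 in total RNA, against 6.52, 1.92 and 1.27 in SMA. The genotypes were apart in these 3 comparisons. In polysomal RNA at day 7 they overlapped, with controls at 0.48, 1.18 and 0.65 and SMA brains at 9.12, 1.08 and 1.77. The log2 differences were 1.65 (SE 0.48) and 1.29 (SE 0.36) at day 5 in total and polysomal RNA, and 3.06 (SE 0.97) and 1.73 (SE 0.86) at day 7. Without SMA replicate 1 the day 7 differences were 2.40 and 0.85.

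**Figure D1:**
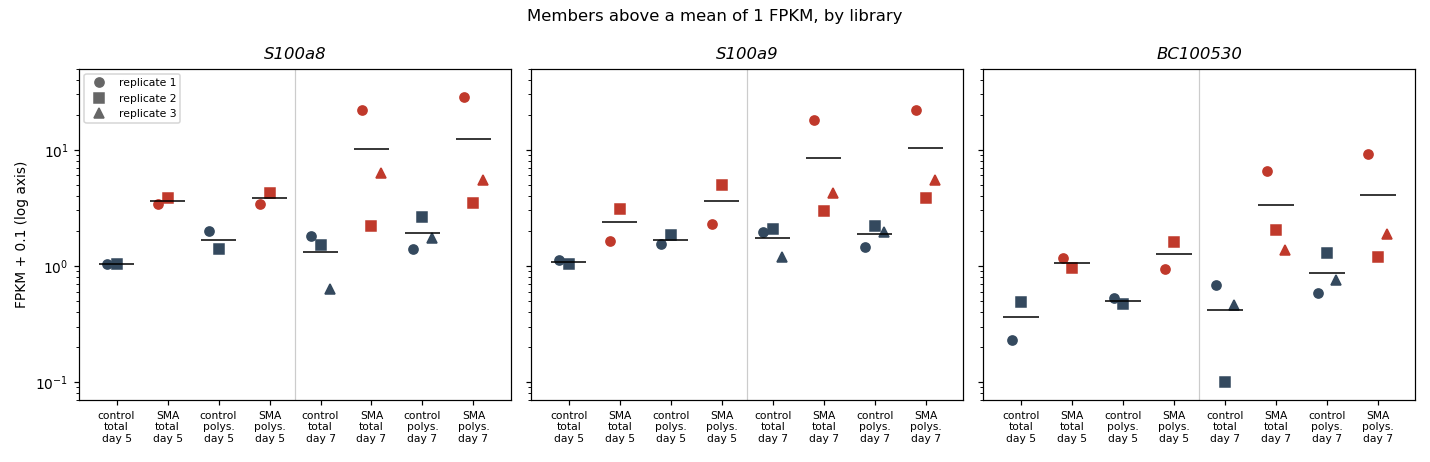
FPKM + 0.1 of S100a8, S100a9 and BC100530 on a log axis in each of the 20 libraries, grouped by genotype (controls dark, SMA red), fraction and day; symbols give the replicate number and lines the group means. SMA replicate 1 at day 7 stands above all other libraries in both fractions (28.34 FPKM of S100a8 in polysomal RNA), and S100a8 and S100a9 do not overlap between genotypes in any of the 4 comparisons.

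Among the secondary granule genes, Lcn2 and Ngp were mostly higher in SMA brains, at low levels. Lcn2 stood at 0.02 and 0.04 FPKM in day 5 total RNA of controls and at 0.14 and 0.13 in SMA. Its day 5 polysomal values were 0.03 and 0 in controls and 0.08 and 0.14 in SMA. At day 7 in total RNA it stood at 0.07, 0.12 and 0.20 in controls and at 1.05, 0.17 and 0.16 in SMA, which overlapped. In polysomal RNA at day 7 the controls were at 0.03, 0.06 and 0.04 and the SMA brains at 0.56, 0.20 and 0.15, which did not overlap. Its log2 differences were 0.86 (SE 0.11), 0.87 (SE 0.23), 0.95 (SE 0.67) and 1.36 (SE 0.39) in that order. Without SMA replicate 1 the day 7 values were 0.24 in total and 0.94 in polysomal RNA.

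Ngp stood at 0.10 and 0.02 FPKM in day 5 total RNA of controls and at 0.20 and 0.16 in SMA. In day 5 polysomal RNA it stood at 0.04 and 0 in controls and at 0.13 and 0.06 in SMA. In day 7 total RNA it stood at 0.17, 0.04 and 0.14 in controls and at 0.38, 0.20 and 0.32 in SMA. The genotypes were apart in these 3 comparisons and overlapped in day 7 polysomal RNA, where controls were at 0.14, 0.24 and 0.08 and SMA brains at 0.71, 0.20 and 0.16. The log2 differences were 0.85 (SE 0.31), 0.70 (SE 0.29), 0.91 (SE 0.32) and 0.70 (SE 0.52), and without SMA replicate 1 the day 7 values were 0.77 in total and 0.19 in polysomal RNA.

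Camp and Ltf did not separate the genotypes. Camp stood at 0.09 and 0.17 FPKM in day 5 total RNA of controls and at 0.05 and 0.09 in SMA, and at 0.16 and 0.03 against 0.21 and 0.07 in polysomal RNA. At day 7 it stood at 0.23, 0.08 and 0.07 in total RNA of controls and at 0.21, 0.07 and 0.10 in SMA. Polysomal RNA of day 7 controls stood at 0.04, 0.19 and 0.05 and the SMA brains at 0.51, 0.29 and 0.14. The genotypes overlapped in all 4 comparisons, with log2 differences of −0.42 (SE 0.25) and 0.32 (SE 0.53) at day 5 and 0.02 (SE 0.36) and 1.08 (SE 0.46) at day 7. The day 7 values of Camp were −0.23 in total and 0.74 in polysomal RNA without SMA replicate 1, so the sign in total RNA turned.

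Ltf stood at 0.21 and 0.15 FPKM in day 5 total RNA of controls and at 0.48 and 0.20 in SMA, and at 0.13 and 0.14 against 0.20 and 0.04 in polysomal RNA. At day 7 it stood at 0.94, 0.29 and 0.04 in total RNA of controls and at 0.27, 0.18 and 0.25 in SMA. The day 7 polysomal controls stood at 0.05, 0.39 and 0.06 and the SMA brains at 0.37, 0.31 and 0.19. The highest Ltf value was thus in a control, replicate 1 at day 7. Its log2 differences were 0.58 (SE 0.41), −0.20 (SE 0.45), −0.22 (SE 0.76) and 0.75 (SE 0.53), and the genotypes overlapped each time. The day 7 values of Ltf were −0.30 and 0.60 without SMA replicate 1.

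**Figure D2:**
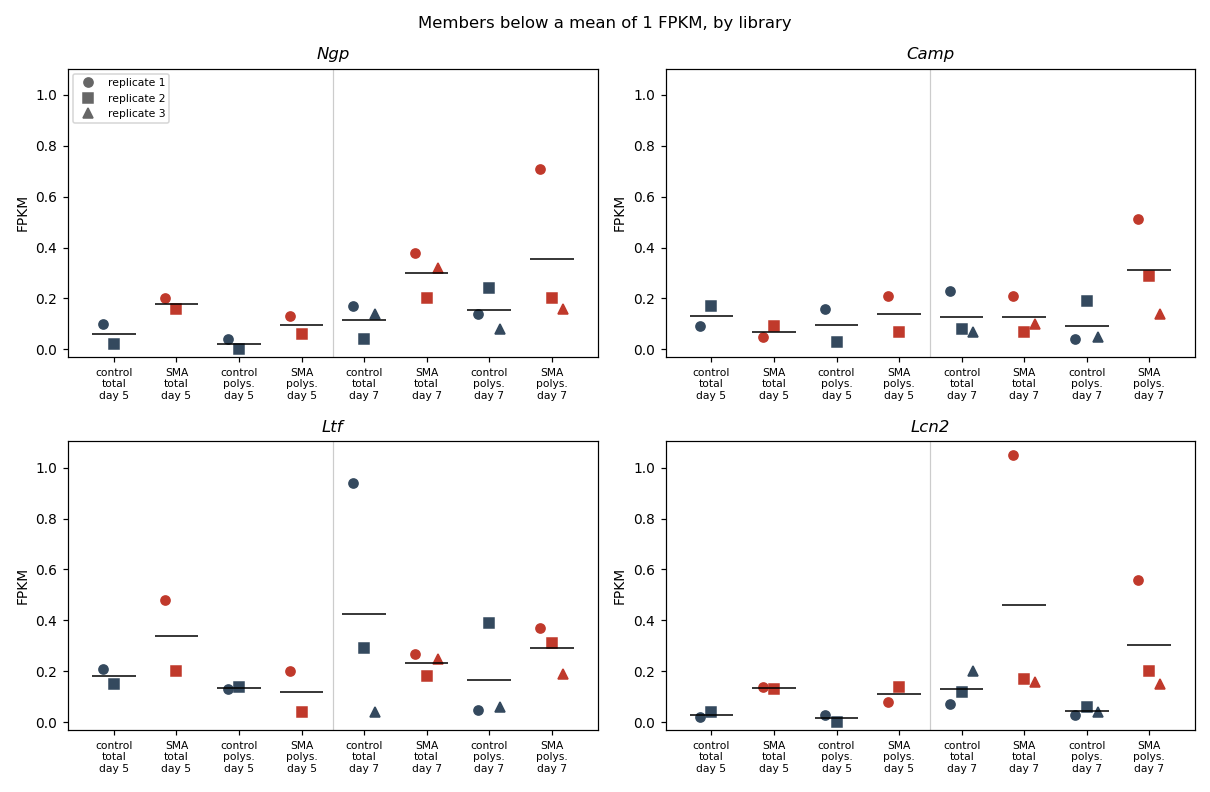
FPKM, on a linear axis, of Ngp, Camp, Ltf and Lcn2 in each library, with group means as lines and the replicate number as symbols. All values are low, from 0 to 1.05 FPKM; Lcn2 is highest in the day 7 total library of SMA replicate 1 and Ltf in that of control replicate 1.

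Counted by a limma fit on log2(FPKM + 0.1) at an unadjusted p under 0.05, 3 members were higher in SMA in day 5 total RNA (S100a8, Lcn2, BC100530), where 4.92% of all genes tested were. The same 3 were higher in day 5 polysomal RNA (7.55% of all genes), 3 in day 7 total RNA (S100a8, Ngp, BC100530; 4.38%) and 2 in day 7 polysomal RNA (S100a9, Lcn2; 4.89%). No member was called lower, where 3.44, 5.67, 4.46 and 5.59% of all genes were, and no member had an adjusted p under 0.05, which 0.129, 0.636, 0.182 and 0.0623% of all genes had. The median log2 difference of the 7 members was 0.86, 0.87, 0.95 and 1.36 in these 4 comparisons, beside medians of 0.05, 0.02, 0.00 and −0.0012 over all genes tested. Without SMA replicate 1 at day 7, 1 member was called in total RNA (S100a9) and 3 in polysomal RNA (S100a8, S100a9, Lcn2), and the medians were 0.77 and 0.85. These 2 fits called 2115 and 2055 of the 22469 genes in either direction. Every SMA library was above every control library for 5 members in each day 5 comparison (26% of all genes in total, 25.6% in polysomal RNA) and for 4 and 3 members in total and polysomal RNA at day 7 (6.8% and 6.94%). S100a8 and S100a9 were apart in all 4, as were 0.855% of all genes. Since the members were chosen with these values known, nothing is read from the counts.

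**Figure D3:**
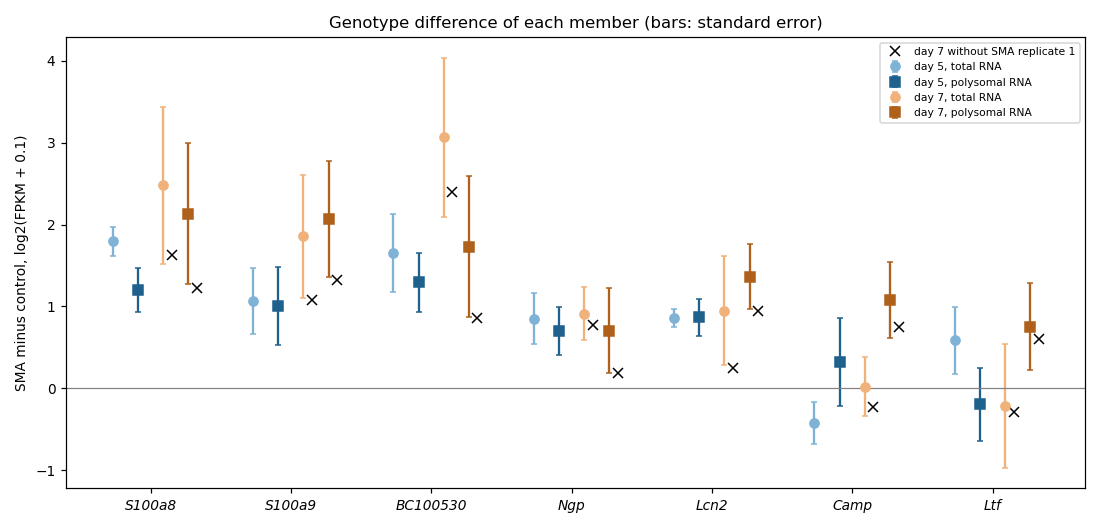
Difference between SMA and control brains in log2(FPKM + 0.1) for each member (bars, standard error of the limma fit), by day and fraction; crosses are the day 7 values without SMA replicate 1. S100a8, S100a9, BC100530, Ngp and Lcn2 lie above 0 in every comparison, while Camp and Ltf fall on both sides of it.

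Of the 7 members, 6 had their highest value of the 20 libraries in 1 of the 2 libraries of SMA replicate 1 at day 7, 5 of them in the polysomal one. The summed FPKM of the members was 48.2 in the total and 61.5 in the polysomal RNA of that replicate, against 7.49 and 12.4 in total and 9.18 and 13.2 in polysomal RNA of the other SMA brains at day 7. The day 7 controls had 2.42 to 5.57 in total and 3.38 to 6.73 in polysomal RNA. Across 14335 genes the 2 libraries numbered 1 deviated together from their group means (r = 0.401), as did those of the other day 7 replicates of both genotypes (r from 0.162 to 0.449).

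Polysomal and total levels were compared for each member, and the members were not tested against each other. S100a8 was higher in polysomal than in total RNA in 8 of 10 pairs of libraries with the same number, and S100a9 in 9 of 10. BC100530 and Camp were higher in 6 of 10, Ltf in 4, Lcn2 in 3 and Ngp in 2. Over both genotypes and stages, the polysomal minus total difference was 0.42 (SE 0.43) for S100a8, 0.42 (SE 0.36) for S100a9 and 0.56 (SE 0.45) for BC100530. The differences were −0.45 (SE 0.34) for Ltf, −0.31 (SE 0.28) for Lcn2, −0.17 (SE 0.24) for Ngp and 0.18 (SE 0.25) for Camp. By limma no member was called at an unadjusted p under 0.05, beside 21% of genes called higher and 25.6% lower in polysomal RNA. With the replicate number as a block, 2 members were called higher, S100a9 (limma, adjusted p = 0.0136) and S100a8 (limma, adjusted p = 0.0842). That blocked fit called 11143 of the 22469 genes in either direction, so nothing is read from these 2 calls.

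Translation efficiency, the polysomal minus total difference on the log2 scale, addresses whether the members were loaded on ribosomes differently in SMA. Its change between genotypes was −0.59 (SE 0.31) for S100a8 and −0.06 (SE 0.65) for S100a9 at day 5, and −0.35 (SE 1.35) and 0.22 (SE 1.08) at day 7. No member was called at either stage, with medians over the 7 of −0.15 and 0.22, while 1.48 and 1.4% of genes were called higher and 1.52 and 1.57% lower. The standard errors at day 7 were larger than the changes themselves for both calprotectin genes. This fit did not pair libraries with the same number, so its errors also hold the spread between replicates. With the replicate number as a block no member was called at day 7 either, beside 1104 of the 22469 genes in either direction. The day 7 changes were −0.40 and 0.25 without SMA replicate 1.

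**Figure D4:**
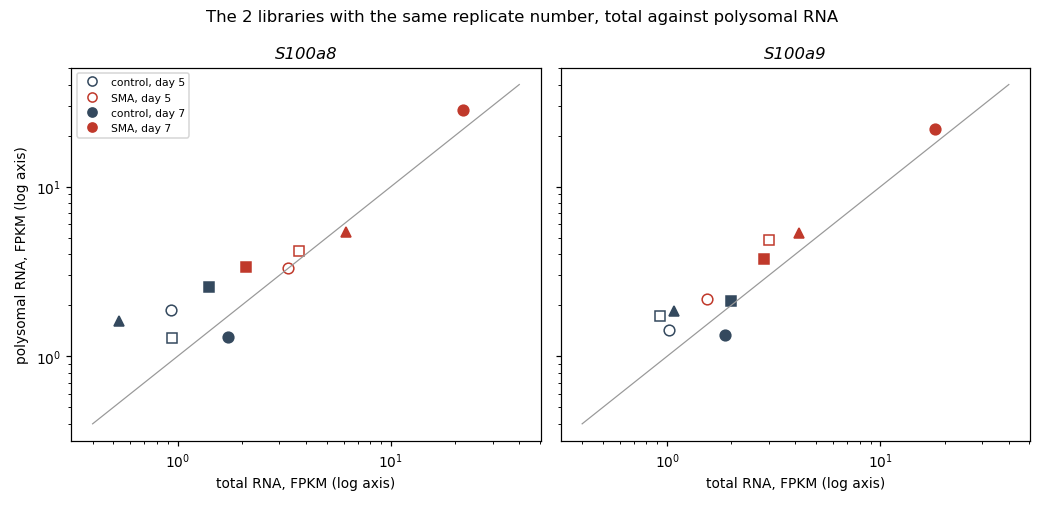
Polysomal against total FPKM of S100a8 and S100a9, both on log axes, 1 point per pair of libraries with the same number (open, day 5; filled, day 7; symbols, replicate number; line, equal values). Polysomal values broadly rise with total values, up to 21.83 (total) and 28.34 FPKM (polysomal) of S100a8 in SMA replicate 1 at day 7. Of 10 pairs, 8 lie above the line for S100a8 and 9 for S100a9.

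Between day 5 and day 7, averaged over genotypes, S100a9 differed by 1.05 (SE 0.51) in total and 0.67 (SE 0.51) in polysomal RNA, and S100a8 by 0.56 (SE 0.62) and 0.63 (SE 0.58). Age and any separate handling of the 2 stages cannot be told apart in these differences. Ngp differed by 1.05 (SE 0.37) in polysomal RNA and was the only member called at an unadjusted p under 0.05 (limma, adjusted p = 0.0588), where 20.8% of genes were called higher and 26.1% lower at day 7. In total RNA no member was called, where 17.7% of genes were called higher and 22.7% lower. With SMA replicate 1 left out, S100a9 differed by 0.66 and 0.29 between the days in total and polysomal RNA and S100a8 by 0.13 and 0.18, and Ngp in polysomal RNA by 0.80 (limma, adjusted p = 0.0435). Lcn2 was then also called at an unadjusted p under 0.05, at 0.48 in total and 0.36 in polysomal RNA. The same fits called 8678 and 10038 of the 22469 genes in either direction. The genotype effect at day 7 minus that at day 5 was 0.69 (SE 1.25) for S100a8 and 0.79 (SE 1.03) for S100a9 in total RNA, and 0.93 (SE 1.16) and 1.07 (SE 1.01) in polysomal RNA. Leaving out SMA replicate 1 at day 7 gave −0.17 for S100a8 and 0.0046 for S100a9 in total and 0.029 and 0.31 in polysomal RNA, so these values rested on that replicate and the sign of S100a8 in total RNA turned. No member was called for this difference, beside 3.64 and 5.32% of genes called higher and 5.24 and 7.94% lower. At this spread the genotype differences of the 2 days could not be separated.

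Across the 20 libraries S100a8 and S100a9 varied together, with a Pearson r of 0.950 on the log2 scale, and 0.921 once the group means were removed. BC100530 had an r of 0.862 with S100a8, Lcn2 0.785, Ngp 0.746, Camp 0.578 and Ltf 0.334. With the group means removed the order changed, to 0.710 for Lcn2, 0.638 for Camp, 0.632 for BC100530, 0.615 for Ngp and 0.424 for Ltf. These are descriptions over 20 libraries that include both fractions and the replicate that stood apart.

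Of the other genes of the stefin A cluster 4 of 6 were tested, and some were called higher in SMA brains in each comparison. Gm5483 stood at 5.05 and 5.90 FPKM in the total and polysomal RNA of SMA replicate 1 at day 7, beside 1.02 and 0.81 in the other total and 1.37 and 1.83 in the other polysomal SMA libraries. Day 7 controls had 0 to 0.64 FPKM of it. Stfa3 had 2.16, 1.23 and 1.09 FPKM in day 7 total RNA of SMA brains, against 0.22, 0.21 and 0.36 in controls, a difference of 2.10 (SE 0.32, limma, adjusted p = 0.204). Of the 4, 1 was called higher in each day 5 comparison (Gm5483 in total, Stfa2 in polysomal RNA), 1 in day 7 total (Stfa3) and 3 in day 7 polysomal RNA (Stfa2l1, Stfa3, Gm5483), and none lower. The difference was −0.22 (SE 1.03) for Stfa2l1 in day 5 total RNA and 0.05 (SE 0.27) for Gm5483 in day 5 polysomal RNA. The medians of the 4 were 0.69, 1.28, 2.09 and 2.36. The day 7 ratios of mean FPKM were smaller without SMA replicate 1. For Stfa2 the ratio went from 3.49 to 1.15 in total and from 9.42 to 3.06 in polysomal RNA. For Gm5483 it went from 5.83 to 2.33 and from 7.11 to 3.75, for Stfa2l1 from 4.22 to 2.84 and from 9.28 to 4.23, and for Stfa3 from 5.67 to 4.41 and from 7.36 to 4.68. The summed level of the cluster was 0.63 to 2.1 FPKM in day 7 total RNA of controls and 3.24 to 13.5 in SMA, and none of the calls passed the adjusted threshold.

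Of 10 neutrophil markers, Ly6g, Elane, Cebpe, Gfi1 and Ctsg had means of 0.0055 to 0.066 FPKM, below those of all members, while Mpo, Cxcr2, Retnlg, Csf3r and Prtn3 had means of 0.109 to 3.04. Ly6g, the surface antigen used to identify mouse neutrophils, was above 0 in 4 of 20 libraries, with a highest value of 0.23 FPKM in day 5 total RNA of SMA replicate 1, and at day 7 it was above 0 only in the polysomal library of SMA replicate 1, at 0.03. Elane (neutrophil elastase) was above 0 in 3 libraries and never over 0.04, and Mpo (myeloperoxidase), of the primary granules, never over 0.25. Retnlg, a secreted product of mature neutrophils, stood at 1.67 and 1.82 FPKM in the total and polysomal libraries of SMA replicate 1 at day 7 and at no more than 0.53 in the other libraries. The receptors Cxcr2 and Csf3r had means of 0.145 and 0.427 FPKM.

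Of the primary granule list 3 of 7 genes were tested and none was called in any of the 4 genotype comparisons. Its most abundant gene, Prtn3 (proteinase 3), stood at 1.59 to 3.68 FPKM with no genotype called. Of 8 other secondary and tertiary granule genes 5 were tested. The most abundant, Pglyrp1, a peptidoglycan-binding protein, was lower in SMA, by −0.51 (SE 0.14) and −0.77 (SE 0.21) at day 5 and −0.40 (SE 0.17) and −0.66 (SE 0.11) at day 7, and was called in 3 of the 4 comparisons. Olfm4, a protein of a subset of neutrophils, was called higher in day 7 total (0.63, SE 0.14) and polysomal RNA (0.67, SE 0.18). These are calls at an unadjusted p under 0.05, and none had an adjusted p under 0.05.

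Of the mature neutrophil list 6 of 10 genes were tested. Il1r2, a decoy receptor for interleukin 1 and the most abundant of the list, was called lower in day 5 total RNA (−1.77, SE 0.30). Fpr1, a receptor for bacterial formyl peptides, was called higher in day 5 polysomal (1.05, SE 0.18) and day 7 total RNA (0.99, SE 0.31). Retnlg (2.73, SE 0.64) and Csf3r (0.69, SE 0.24) were called higher in day 7 polysomal RNA. The Retnlg ratio of mean FPKM at day 7 went from 44.0 to 20.5 in polysomal and from 5.07 to 1.78 in total RNA without SMA replicate 1, with 2 of the 3 polysomal controls listed at 0. Of the granulocyte transcription factors, 4 of 6 tested, none was called, with Spi1, which microglia also express, the most abundant at 2.52 FPKM, and Cebpe, which drives secondary granule genes, was above 0 in 7 libraries and never over 0.07.

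In the lists of receptors and partners of the member proteins and of neutrophil chemoattractants, calls were made at day 5 only. Of all genes tested, 4.92% were called higher and 3.44% lower in day 5 total RNA, and 7.55 and 5.67% in day 5 polysomal RNA. Of 6 receptors and partners, Slc22a17, reported as a receptor for lipocalin 2, was the most abundant at a mean of 106.8 FPKM and was not called. Lrp1, an endocytic receptor that binds lactoferrin, was called higher in day 5 total (0.47, SE 0.11) and polysomal RNA (0.57, SE 0.12). Of the neutrophil chemoattractants, 5 of 8 tested, Cxcl1 was called lower at day 5 in total (−1.09, SE 0.22) and polysomal RNA (−0.69, SE 0.13), and Cxcl12, the most abundant at 15.2 FPKM, lower in day 5 total RNA (−0.54, SE 0.10). None of the list was called at day 7.

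Of the markers of other blood cells, F13a1 alone was called higher. Of 7 erythroid genes in the table, none was called higher and 1, 0, 0 and 2 were called lower in the 4 comparisons in order, with medians of −0.29, −0.49, −0.20 and −0.45. Their summed level in day 7 total RNA was 3624 to 4234 FPKM in controls and 2968 to 4315 in SMA, with the highest value in SMA replicate 1, and their most abundant gene was Hba-a1, an alpha-globin, at 1330 FPKM. Of 4 tested platelet genes none was called. Of 3 tested monocyte genes, Lyz2, a lysozyme of monocytes and neutrophils and the most abundant of the list at 6.16 FPKM, was called lower at day 5 in total (−1.11, SE 0.23) and polysomal RNA (−0.98, SE 0.19). Plac8 was called lower in day 5 polysomal RNA (−1.80, SE 0.53) and F13a1 higher in day 7 total RNA (0.33, SE 0.12). Of 4 tested lymphocyte genes, Ighm, the most abundant at 3.25 FPKM, was called lower in 3 comparisons, and Cd3g in both day 5 comparisons. Of 3 tested mast cell and eosinophil genes, led by Cpa3 at 0.226 FPKM, 1 was called lower in day 7 polysomal RNA.

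Among the tissue lists, calls at day 7 were made for endothelial, choroid plexus, microglial and astrocyte genes. Of 6 endothelial genes 3, 2, 4 and 4 were called lower in the 4 comparisons, and Cldn5, a tight junction protein and the most abundant, differed by −1.36 (SE 0.12) and −1.62 (SE 0.37) at day 5 and by −1.03 (SE 0.11) and −1.01 (SE 0.12) at day 7. Ly6c1 was called higher in day 7 total RNA. Of 6 choroid plexus genes 0, 1, 4 and 3 were called higher, and Ttr, which encodes transthyretin and was the most abundant, differed by 0.88 (SE 0.11) and 0.91 (SE 0.15) at day 7. Of 9 microglial genes, C1qa, C1qb and C1qc, the chains of complement C1q, were called higher at day 7 in both fractions, and P2ry12 was called lower in both day 5 comparisons and in day 7 total RNA. Of 8 reactive astrocyte genes, led by Vim at 69.0 FPKM, Serpina3n was called higher and S1pr3 lower in both fractions at day 7. No gene of the skin and oral epithelium list, which includes Krt10 at 2.67 FPKM, was called. The summed microglial level was highest in SMA replicate 1 at day 7 in both fractions (149.0 and 185.1 FPKM). The reactive astrocyte (156.0 and 169.5) and choroid plexus sums (819.0 and 1116.9) were also the highest of day 7 there, the endothelial sum not. Among the astrocyte genes Gfap stood there at 89.29 and 99.68 FPKM, its highest values, while Vim, at 42.10 and 42.03, was not highest. The part of these cell types in the values of the members was not tested.

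**Figure D5:**
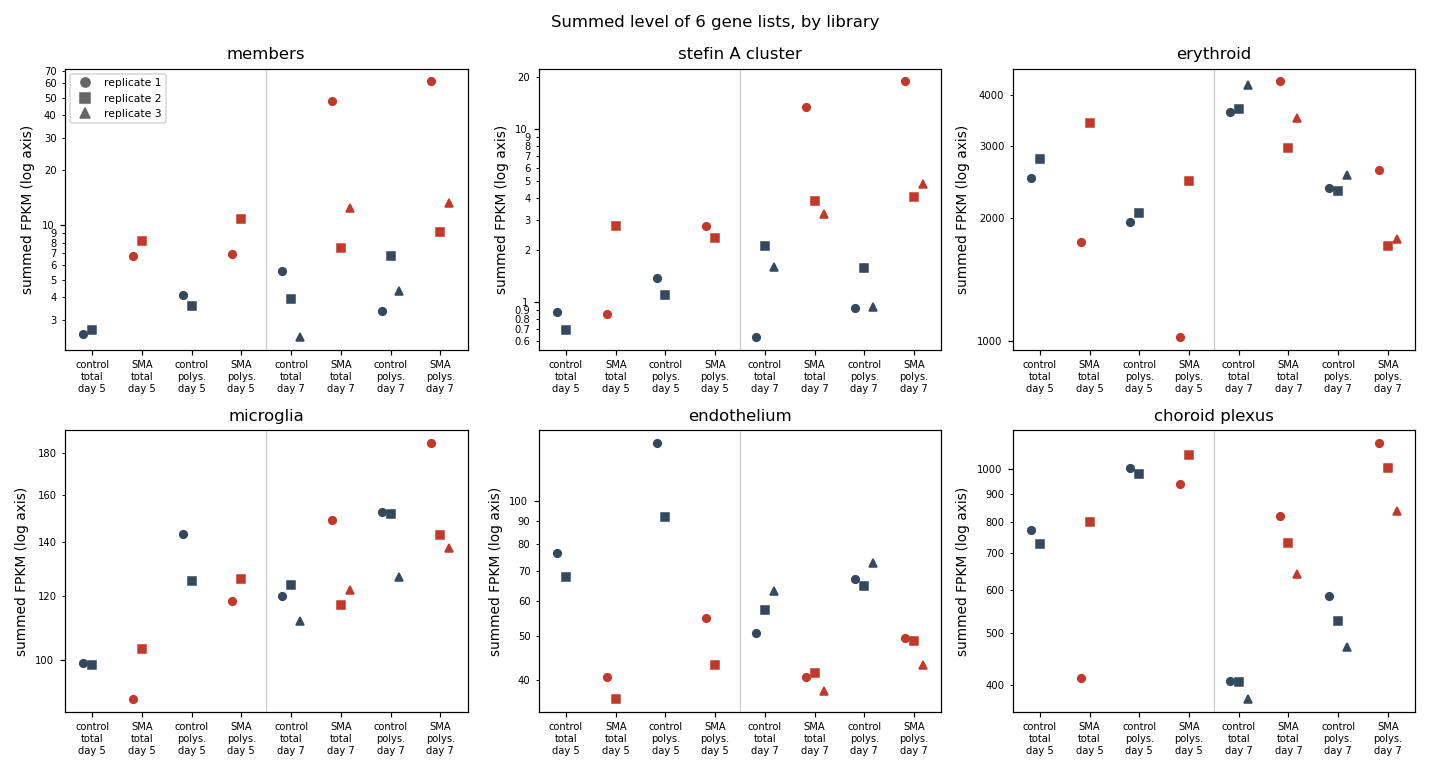
Summed FPKM, on log axes, of the 7 members and of the stefin A, erythroid, microglial, endothelial and choroid plexus lists in each library, by genotype (controls dark, SMA red), fraction and day, with the replicate number as symbols. The member and stefin A sums are highest in SMA replicate 1 at day 7 (61.5 FPKM for the members in polysomal RNA), while erythroid sums overlap between genotypes in day 7 total RNA and endothelial sums are lower in every SMA group.

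Besides the stefins, neighbours of the members called higher in SMA lay only around Lcn2 and Ltf, and only at day 5. Golga2, near Lcn2, was called higher in day 5 total (0.32, SE 0.10) and polysomal RNA (0.21, SE 0.05). Members were left out of the counts of neighbours. Of the 7 other tested genes within 100 kb of S100a8, which include S100a4 and S100a6, calcium-binding proteins of the same family, none was called higher in any of the 4 comparisons and 1 was called lower in day 7 polysomal RNA. S100a6, at a mean of 41.7 FPKM, differed by −0.69 (SE 0.47) and −0.41 (SE 0.21) at day 5 and by −0.07 (SE 0.11) and −0.06 (SE 0.09) at day 7. None of 6 genes around Ngp was called, and 1 of 9 around Camp, Map4, was called lower in day 7 total RNA. Around Lcn2, 1 of 9 was called higher in day 5 total RNA and 2 higher and 1 lower in day 5 polysomal RNA, and around Ltf 1 of 6 was higher and 2 lower in day 5 total RNA, 1 lower in day 5 polysomal RNA and 1 lower in day 7 total RNA.

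The 10 genes whose log2 level followed the mean log2 level of the 7 members most closely over the 20 libraries, among 21319 genes, were Grin2c (r = 0.900), Kcna5 (0.871), Rora (0.861), Mertk (0.851), Fam107a (0.840), Csrp1 (0.832), Ly6a (0.831), Stfa2 (0.830), Hrk (0.827) and Stfa3 (0.820). Between genotypes Fam107a differed by 2.19 (SE 0.15) in day 5 total RNA, Ly6a by 1.69 (SE 0.16) in day 7 total RNA, and Grin2c, the closest, by 0.68 (SE 0.34) there without being called. With group means subtracted, the 10 most alike were Zfp277 (0.900), Ctss (0.892), Bnip3 (0.877), Gm14970 (0.873), Gm37931 (0.869), Tigd2 (0.846), Sertm1 (0.842), Csf2rb2 (0.840), Hagh (0.831) and Pycard (0.829). The 2 lists had no gene in common. The libraries share genotypes, fractions and the replicate that stood apart, so the order is a description.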

How the data were processed

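Per the labels, RNA of 20 brain samples was sequenced by the authors from stranded total RNA libraries, aligned with TopHat2 2.0.14 to GRCm38 and quantified with Cufflinks 2.2.1. The deposited values are FPKM with 2 decimals and hold no read counts, so a fragment's worth was estimated from them; the study's own mapping statistics were not used here. The authors ran the alignment and quantification programs at default settings, under which strand is not used, so reads of a gene and an antisense partner cannot be told apart. FPKM values were transformed to log2(FPKM + 0.1), and the 22469 of 45700 genes that averaged 0.1 FPKM or more were fitted with limma 3.58.1 (R 4.3.3, empirical Bayes with a variance trend, Benjamini-Hochberg adjustment over all genes tested). A fold change on this scale understates the change of weak genes. The test was tried on simulated data first. The members and gene lists were chosen with earlier results of these data known. All 7 members were described in every library. Of each list the text names the most abundant gene, genes called at an unadjusted p under 0.05 whose genotypes did not overlap, and defining markers at 0, except for 1 item that is not reported here; the order of likeness is Pearson's r with the mean of the members. Libraries with the same number in total and polysomal RNA deviated together at day 7 (r from 0.162 to 0.449) and at day 5 in SMA (r = 0.215) more than in controls (r = 0.0952). The labels do not say more of how replicates were obtained than that each is a brain, and p-values measure the spread between these samples. Alternatives were 2 other pseudocounts, 2 other filters, rescaling, no trend, a replicate block, 1 model over all libraries and leaving out each replicate.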

Additional observations from a re-analysis of the deposited data

How the results depend on the processing

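S100a8, S100a9, BC100530, Ngp and Lcn2 were higher in SMA under every alternative that tested them in all 4 genotype comparisons, while Camp and Ltf took both signs, and Ltf in day 5 polysomal RNA ranged from −0.75 to 0.35 with a replicate left out, the sign turning without SMA replicate 2. The size depended on the pseudocount. The median log2 difference of the 7 members at a pseudocount of 1 was 0.18 in day 5 total, 0.13 in day 5 polysomal and 0.31 in day 7 polysomal RNA, and at 0.01 it was 1.72 and 1.25 at day 5; the day 5 change in translation efficiency was −0.028 at a pseudocount of 1. Members called higher went from 3 to 0 in both day 5 comparisons with 1 model over all 20 libraries and from 2 to 5 in day 7 polysomal RNA. A pseudocount of 0.01 left 1 in day 7 total RNA, and a pseudocount of 1 and a filter at a mean of 1 FPKM each left 1 in day 7 polysomal RNA. For day 7 against day 5, 1 was called in total RNA at a pseudocount of 0.01, and in polysomal RNA 2 were called at 0.01 and 0 at a pseudocount of 1 or a filter at 1 FPKM. With the replicate block, 1 member was called in day 5 polysomal and 1 in day 7 polysomal RNA, beside 2960 and 2230 of all genes. For polysomal against total RNA the block called 2 members higher, S100a8 (adjusted p = 0.0842) and S100a9 (adjusted p = 0.0136, limma), beside 11143 genes in either direction. Same-numbered libraries of the genotypes did not deviate together at day 7 (r from −0.144 to −0.0040), and at day 5 r was 0.0348 in total and 0.103 in polysomal RNA, over 2 pairs that cannot settle a pairing; those of the fractions did at day 7, and the block moved the genes called for translation efficiency there from 667 to 1104 without a call among the members. Leaving out each replicate in turn, the median of the members ranged from 0.83 to 1.11 in day 5 total and from 0.68 to 1.07 in day 5 polysomal RNA, from −0.29 to 0.0373 for translation efficiency at day 5 and from 0.073 (without SMA replicate 1 at day 7) to 1.10 for the stage difference in polysomal RNA. Members called higher ranged from 0 to 2 in day 5 polysomal, 1 to 3 in day 7 total and 0 to 3 in day 7 polysomal RNA, 0 to 1 and 0 to 2 for day 7 against day 5 in total and polysomal RNA, and 0 to 1 for the stage difference in polysomal RNA; members called lower ranged from 0 to 1 in day 5 polysomal RNA and for translation efficiency at day 5. Genes called in day 5 total RNA went from 1878 to 2907 with no filter, 3800 in 1 model and 879 to 5490 with a replicate left out, and in day 5 polysomal RNA from 2972 to 1902 with the filter at 1 FPKM, 4493 in 1 model and 1793 without SMA replicate 2. For translation efficiency they went from 673 to 354 with the filter at 1 FPKM, 1531 with no filter and 1578 without SMA replicate 2 at day 5, and from 667 to 315 with the filter and 1088 without control replicate 1 at day 7; for the stage difference they ranged from 1192 to 5117 in total and 1895 to 4581 in polysomal RNA. The causes were not tested. Depth limits the values of the weak members, of which Camp was estimated at about 1 to 13 fragments per library.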
